A study of Mus musculus with 3 samples.

Results

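The genes described here encode the machinery that stores transmitter in synaptic vesicles and releases it, measured in cultured mouse sensory neurons. The set holds 37 genes given as a list of symbols: proteins of the vesicle membrane, synapsins, synaptotagmins, SNARE proteins and their partners, Rab3 proteins, priming factors, active zone scaffolds, glutamate transporters and proteins that retrieve vesicles. Of the 30142 genes that a probe set names with a single symbol, these are 37, and each was read by 1 such probe set. All 37 lay at or above the background floor of 43.7 intensity units, as did 17653 genes in all; the floor is the 95th percentile of 492 vomeronasal receptor genes, which were taken as unexpressed in this tissue.

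Primary dorsal root ganglion neurons came from male ICR mice, an outbred strain, aged 8 to 10 weeks, and were kept for 72 hours in DMEM with the B27 supplement or in one of the other media. The control medium held nothing further, the SEMA3E medium held recombinant SEMA3E at 1 µg/ml, and the third medium, titled high-level blocking in the labels, held SEMA3E at 1 µg/ml with an IgG that blocks it, also at 1 µg/ml. Semaphorin 3E is a secreted guidance protein that signals through the receptor plexin D1. Each medium has 1 array, so no difference below carries a test or an error, no array stands for a spread between cultures, and there is no medium with IgG alone.

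A synaptic vesicle is filled with transmitter by a transporter and tethered to other vesicles by synapsins. It is held near the membrane by Rab3 and docked at a scaffold called the active zone. Priming factors bring it to readiness, the SNARE proteins of vesicle and cell membrane zip together, and a synaptotagmin triggers fusion when calcium enters. NSF with its adaptors takes the spent SNARE complex apart, and coat proteins with dynamin retrieve the membrane. Sensory neurons of the ganglion release glutamate and peptides from their central endings in the spinal cord and peptides from their endings in skin and organs, and in culture the cell bodies and new neurites hold this machinery.

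Where the release genes differed between SEMA3E and control medium, they were lower: 11 of 37 had a lower deposited value with SEMA3E, 26 had an identical value and none was higher on the deposited scale. Of all genes at or above the floor 12.3% were lower and 6.21% higher. The differences were small. Sv2b stood furthest below control, at 88.2% of the control value, followed by Nsf at 91.6%, Syp at 91.9% and Vamp1 at 92.8%. The 11 lower genes lie in the vesicle membrane, synaptotagmin, SNARE, SNARE recycling, Rab3 and endocytosis groups, while the synapsins, the priming factors and the active zone scaffolds held identical values on all 3 arrays. An identical value does not show equal RNA, and how the values were made is not known here. Some different genes also held the same value as written. Syt7 and Madd both read 286.186 units, and Syp with SEMA3E read 172.814, as did Col3a1. A value that equals another exactly, such as a return to the control value, is therefore not a measure of equal amounts.

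The sequences just before the transcription starts of the 4 genes furthest below control are shown first, with that of Syn1, a synapsin whose value was identical on all arrays and whose upstream bases hold several known motif words. They are RefSeq sequences of mouse build GRCm38.p6, 5′ to 3′ on the gene's strand and ending at the base before the start, with motif words in capitals. For Sv2b, on the minus strand at chr7:75309263-75309512, the table holds 4 starts and the one furthest upstream is given. Nsf lies on the minus strand at chr11:103954057-103954306, Syp on the plus strand at chrX:7638330-7638579, Vamp1 on the plus strand at chr6:125215331-125215580 and Syn1 on the minus strand at chrX:20920919-20921168.
Sv2b: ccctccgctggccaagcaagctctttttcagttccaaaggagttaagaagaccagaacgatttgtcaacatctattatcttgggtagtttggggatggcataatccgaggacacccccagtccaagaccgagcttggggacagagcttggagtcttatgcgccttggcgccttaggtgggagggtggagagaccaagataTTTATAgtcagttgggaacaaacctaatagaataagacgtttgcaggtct
Nsf: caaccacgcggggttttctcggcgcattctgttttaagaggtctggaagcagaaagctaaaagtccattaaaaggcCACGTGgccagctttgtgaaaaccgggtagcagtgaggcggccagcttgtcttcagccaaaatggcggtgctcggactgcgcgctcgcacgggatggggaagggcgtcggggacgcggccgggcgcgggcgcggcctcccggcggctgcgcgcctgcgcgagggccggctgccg
Syp: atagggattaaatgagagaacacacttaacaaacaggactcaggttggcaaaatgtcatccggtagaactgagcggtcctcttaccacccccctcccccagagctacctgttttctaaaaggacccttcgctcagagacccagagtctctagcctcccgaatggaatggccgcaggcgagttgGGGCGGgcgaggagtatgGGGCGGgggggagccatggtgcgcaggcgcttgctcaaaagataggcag
Vamp1: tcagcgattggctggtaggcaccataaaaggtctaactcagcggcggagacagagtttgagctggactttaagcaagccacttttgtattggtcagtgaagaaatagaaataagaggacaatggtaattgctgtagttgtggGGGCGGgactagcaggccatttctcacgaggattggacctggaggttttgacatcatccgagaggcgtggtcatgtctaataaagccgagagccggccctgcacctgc
Syn1: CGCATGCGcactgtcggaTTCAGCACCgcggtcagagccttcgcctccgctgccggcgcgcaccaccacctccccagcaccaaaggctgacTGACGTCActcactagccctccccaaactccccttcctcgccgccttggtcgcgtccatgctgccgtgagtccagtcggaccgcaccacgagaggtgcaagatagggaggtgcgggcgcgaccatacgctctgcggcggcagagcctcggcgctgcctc

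The capitals mark a TATA box (TATAAA) read on the opposite strand in Sv2b, 50 to 45 bases before the start, and an E-box (CACGTG) in Nsf. They mark GC boxes (GGGCGG), the word bound by Sp1 family factors, at 67 to 62 and 49 to 44 bases before the start in Syp and at 108 to 103 in Vamp1. In Syn1 they mark an NRF1 core (CGCATGCG), the left part of the RE1 element (TTCAGCACC), bound by the repressor REST that silences neuronal genes outside the nervous system, and a cAMP response element (TGACGTCA). Syp and Vamp1 share the GC box, and no other marked word stands in more than 1 of these 5 windows.

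The promoter table holds 31 of the 37 genes, in 40 windows of 250 bases; Snap25, Syt4, Syt5, Syt7, Vamp2 and Rims2 are not shown. A search of both strands found the GC box in 20 of the 31 genes and in 52.5% of their windows, against 32.7% of all 32851 windows in the table. The release gene windows were also richer in G and C, at 58.1% against 53.2% over all windows. The E-box was in 4 of 31 genes and 10.0% of their windows (6.02% of all windows), and the NRF1 core in 2 genes and 5.0% of windows (1.55%). The TATA box (5.0% of the genes' windows against 12.4%), the cAMP response element (2.50% against 1.55%) and the left RE1 part (2.50% against 0.301%) were in 1 gene each. A match is a run of letters and not a site shown to be bound.

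**Figure D1:**
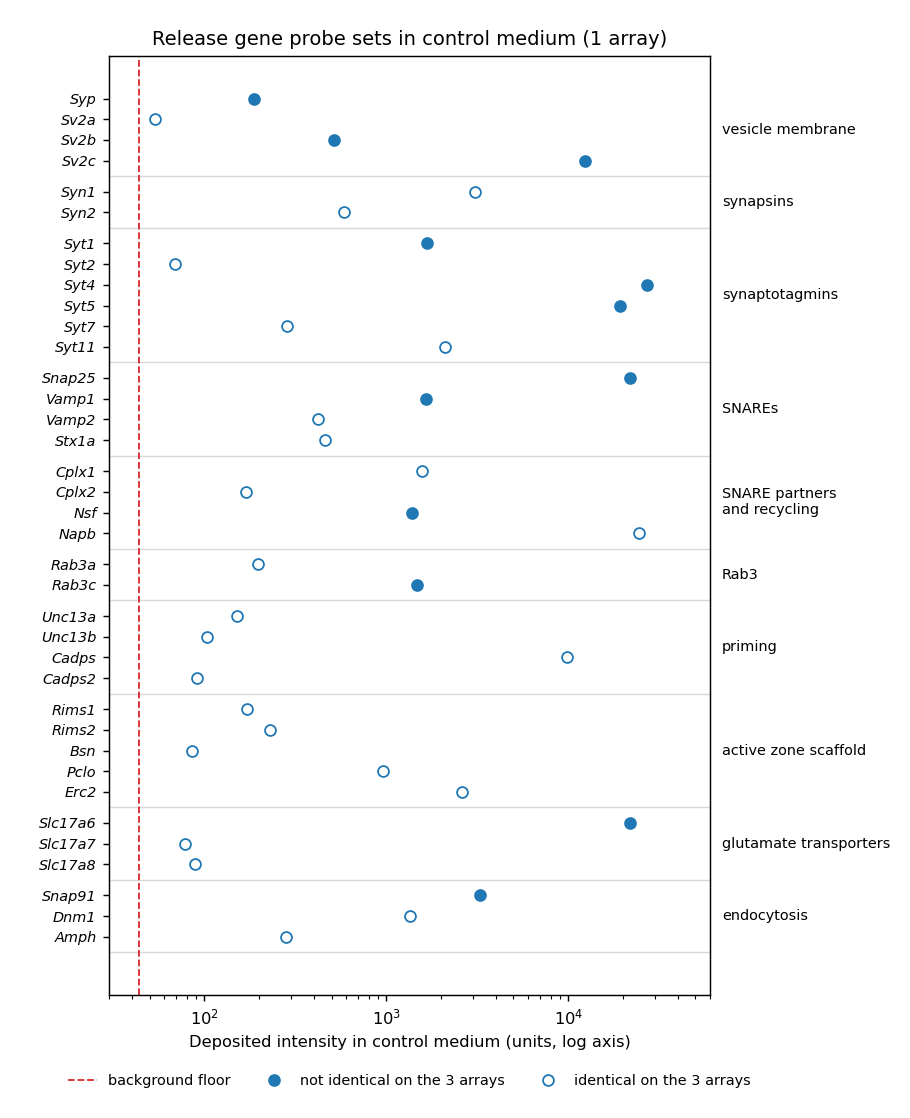
Deposited intensity of the 37 release genes in control medium (1 array), on a log axis and grouped by role; the dashed line is the background floor of 43.7 units. Filled points are the 12 genes whose values are not identical on the 3 arrays, 10 of them at 1000 units or more, and open points are the 25 genes whose values are identical.

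The genes of the vesicle membrane proteins included the largest difference of the set. Sv2b, one of the SV2 glycoproteins that bind synaptotagmin, read 516 units in control medium, 455 in SEMA3E medium and 461 with the IgG. The control array was highest and the other arrays lay close together, at 88.2% and 89.4% of it, which on the log2 scale are differences of -0.18 and -0.16. Syp, synaptophysin, an abundant vesicle membrane protein and partner of synaptobrevin, read 188 units in control medium and 173 in both SEMA3E media (-0.12). Sv2c, an SV2 form of narrow distribution in brain, read 12440 in control medium, 11972 with SEMA3E and 12440 again with the IgG. Its difference from control was -0.055 in SEMA3E medium and 0 with the IgG, so its array order is unlike that of Syp. Sv2a, the SV2 form found at most synapses, read 53.7 units on every array, near the floor.

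The 3 synaptotagmins that differed held the same order of arrays. Syt1, the calcium sensor of fast synchronous release, read 1672 units in control medium, 1639 with SEMA3E and 1672 with the IgG (-0.029 for SEMA3E minus control). Syt4, a form that does not bind calcium through its first C2 domain and sits on dense core vesicles, read 27111, 26767 and 27111 (-0.018). Syt5, a calcium binding form, read 19256, 18944 and 19256 (-0.024). All 3 were lower in SEMA3E medium alone, at 98.0% to 98.7% of control, and stood exactly at the control value in the medium with IgG, except that Syt4 was 0.0010 higher with SEMA3E after loess and that, after quantile normalization, the IgG array was below the SEMA3E array for Syt4 (-0.034) and Syt5 (-0.0020). The other 3 were identical on all arrays: Syt2, the fast sensor of hindbrain and spinal synapses, at 68.9 units, Syt7, the high affinity sensor of asynchronous release, at 286, and Syt11, which does not bind calcium, at 2101. The Syt2 value was 1.58 times the floor, near those of Gfap (67.4) and Olig2 (68.0), markers of central glia and not of this tissue.

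Among the SNAREs, the genes that differed held the same lower value in both media with SEMA3E. Snap25, the cell membrane SNARE that botulinum toxin A cuts, read 21761 units in control medium and 21300 in each of the others (-0.031); after quantile normalization it was 0.011 higher with SEMA3E than in control medium. Vamp1, a synaptobrevin of spinal and brainstem neurons, read 1653 and then 1533 on both other arrays (-0.11). A second probe set that names Vamp1 together with E130112N10Rik read 261 units on all 3 arrays, so the lower value was not seen there. Vamp2, the main synaptobrevin of the forebrain, was identical at 419.7 units, and Stx1a, the syntaxin of the cell membrane, at 459.

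Nsf, the ATPase that takes SNARE complexes apart, read 1389 units in control medium, 1273 with SEMA3E and 1369.5 with the IgG. Its value with SEMA3E stood apart from the other arrays: the log2 difference was -0.13 for SEMA3E minus control, 0.11 for IgG minus SEMA3E and -0.021 for IgG minus control. Napb, an adaptor that brings NSF to the complex, was identical at 24543 units. The complexins, which clamp the SNARE complex, were identical at 1573 (Cplx1) and 169 (Cplx2). Of the Rab3 proteins, small GTPases of the vesicle surface, Rab3c read 1470.1 units in control medium and 1390.4 on both other arrays (-0.080), and Rab3a was identical at 197.

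The synapsins, the priming factors and the active zone scaffolds held identical values on all arrays, as did 74.9% of all genes. The synapsins, which tether vesicles to each other, read 3072 (Syn1) and 586 (Syn2). The priming factors read 151 (Unc13a) and 103 (Unc13b) for the Munc13 forms, and 9864 (Cadps) and 91.3 (Cadps2) for the CAPS forms, which also prime dense core vesicles. The active zone scaffolds read 172 (Rims1), 230.5 (Rims2), 85.8 (Bsn, Bassoon), 957 (Pclo, Piccolo) and 2612 (Erc2). Bsn and Cadps2 were close to the floor, at 1.96 and 2.09 times its value.

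Slc17a6, the vesicular glutamate transporter VGLUT2 of most sensory neurons, was the only member lower with the IgG than with SEMA3E. It read 21803 units in control and in SEMA3E medium and 21288 with the IgG (-0.035). Slc17a7 (VGLUT1) at 78.3 units and Slc17a8 (VGLUT3) at 88.6 were identical on all arrays, at 1.79 and 2.02 times the floor. Of the genes that retrieve vesicles, Snap91, the clathrin adaptor AP180, read 3259.7 units in control medium, 3054 with SEMA3E and 3176 with the IgG, an order of control, IgG and SEMA3E from high to low (-0.094 for SEMA3E minus control and 0.056 for IgG minus SEMA3E). Dnm1, the dynamin that cuts the vesicle neck, was identical at 1347 units and Amph, its partner amphiphysin, at 282.

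**Figure D2:**
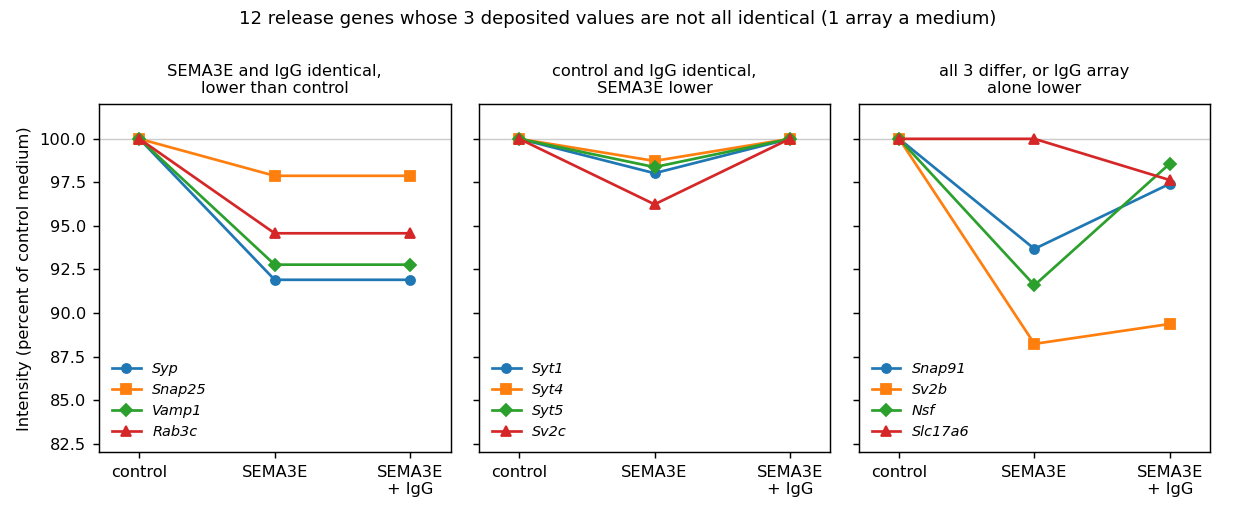
Intensity of the 12 release genes whose values are not all identical, as a percent of the control array, in the 3 media (1 array each), with 4 genes in each panel. Sv2b is at 88.2% and 89.4% of control, the 4 genes of the middle panel return to 100% with the IgG, and no gene lies above control on any array as deposited (Syt4 does by 0.0010 with SEMA3E after loess, and Snap25 by 0.011 after quantile normalization, on the log2 scale).

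In SEMA3E minus control, 11 of 37 release genes were lower (29.7%) against 12.3% of the 17653 genes at or above the floor, and none was higher against 6.21%. The median log2 difference was 0 for the release genes and for all genes, and the means were -0.023 and -0.0043. At a fold of at least 1.1, Sv2b alone was lower, where 2.36% of all genes were lower and 1.38% higher. As far as Sv2b below control lay 1.53% of all genes, and as far as Nsf lay 2.62%, a count of 270 and 462 genes that includes them. These counts hold for the deposited scale, on which 81.4% of all genes were identical. A rescaling gives identical genes a sign as well: all genes, 2180 lower and 1097 higher as deposited, became 2033 and 15620 after median centring, 7983 and 9670 after loess and 12423 and 4669 after quantile normalization. The 37 release genes, 11 lower and 0 higher as deposited, became 11 and 26 after centring, 18 and 19 after loess and 27 and 9 after quantile normalization. Of the 11 that differed as deposited, 11 were lower after centring, 10 after loess (without Syt4) and 10 after quantile normalization (without Snap25).

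Adding the blocking IgG to SEMA3E asked which of these values move back. In IgG minus SEMA3E, 7 release genes were higher (18.9% against 10.2% of all genes), 1 was lower (2.70% against 10.3%) and 29 were identical. None was 1.1-fold apart, where 2.67% of all genes were higher and 2.08% lower. The median was 0 in both and the mean 0.0074 for the release genes against 0.00095 for all genes. Of the 11 genes lower with SEMA3E, Syt1, Syt4, Syt5 and Sv2c held the control value again, Nsf, Snap91 and Sv2b lay between the SEMA3E and control values, and Syp, Snap25, Vamp1 and Rab3c held the SEMA3E value. Both comparisons use the SEMA3E array, so a low reading on it makes the first difference negative and the second positive at once. The lean to higher values with the IgG holds for the deposited scale and after median centring. After loess 15 release genes were lower and 22 higher, and after quantile normalization 26 were lower and 10 higher, so the lean turned over there. All genes, 1824 lower and 1793 higher as deposited, became 6505 and 11148 after loess and 10338 and 6802 after quantile normalization.

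In IgG minus control, 8 release genes were lower (21.6% against 11.4%), 29 were identical and none was higher (against 7.59%). Sv2b was again the only gene at least 1.1-fold lower, where 2.45% of all genes were lower and 2.11% higher. The mean was -0.016 for the release genes and -0.0034 for all genes, with medians of 0. This comparison shares an array with each of the others. Its counts also depended on the scale. Release genes, 8 lower and 0 higher as deposited, became 8 and 29 after centring, 14 and 23 after loess and 35 and 1 after quantile normalization. All genes, 2011 lower and 1340 higher as deposited, became 1905 and 15748, 6808 and 10845, and 14245 and 2935.

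Sorted by which arrays held identical values, 25 of 37 release genes (67.6%) were identical on all 3, against 74.9% of all genes. A further 4 (10.8% against 3.27%) were lower by the same amount on both arrays with SEMA3E, 4 (10.8% against 3.68%) were lower in SEMA3E medium alone, 3 (8.11% against 7.79%) differed on all arrays, and Slc17a6 (2.70% against 4.01%) was lower with the IgG alone. No release gene was in the 3 patterns with a higher value, which held 1.37%, 2.46% and 2.55% of all genes. All these patterns rest on values equal as written, and some different genes share such values too.

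**Figure D3:**
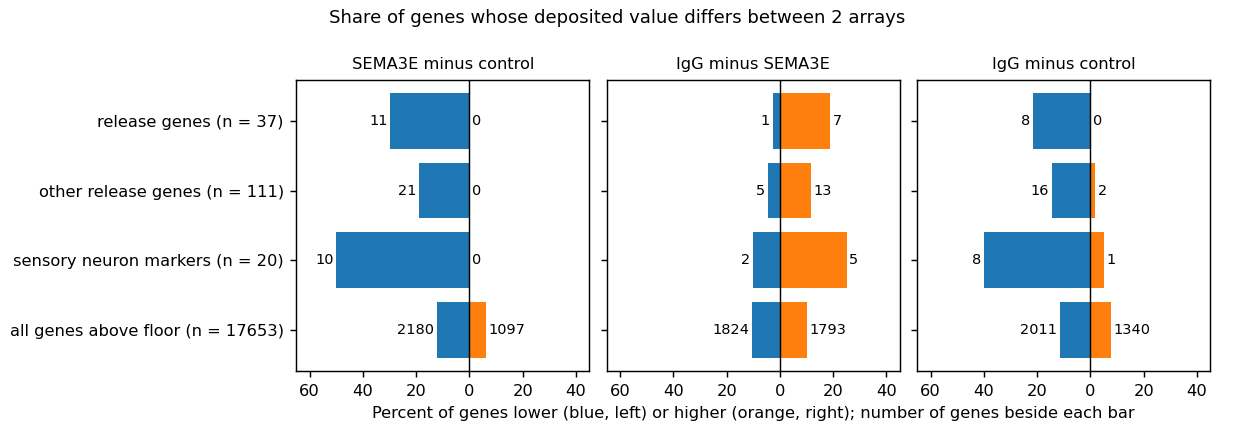
Percent of genes whose deposited value is lower (blue, to the left) or higher (orange, to the right) between 2 arrays, in 3 panels for the 3 comparisons, with the number of genes beside each bar. Release genes are lower in 11, 1 and 8 cases and higher in 0, 7 and 0, beside the other release genes, the sensory neuron markers and all genes at or above the floor.

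The share of lower values depended on how bright a probe set was, and the release genes that differed were bright. The 12 genes with any difference had a median of 2466 units in control medium, and 10 of them read at least 1000 units; the 25 identical genes had a median of 282, and 7 read at least 1000. Over all genes cut into 6 equal classes by mean brightness, the share lower in SEMA3E minus control went from 4.38% in the dimmest class to 29.1% in the brightest. In the 2 brightest classes 4 of 8 and 5 of 11 release genes were lower, against 17.8% and 29.1% of all genes. With the classes weighted by where the release genes lie, the share of all genes lower was 16.002% in place of 12.3%, beside 29.7% of the release genes; for IgG minus SEMA3E the share higher was 12.8% beside 18.9%, and for IgG minus control the share lower was 14.5% beside 21.6%. Among the vomeronasal receptor genes, which set the floor, 13 were lower and 75 higher in SEMA3E minus control, so dim probe sets leaned the other way.

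**Figure D4:**
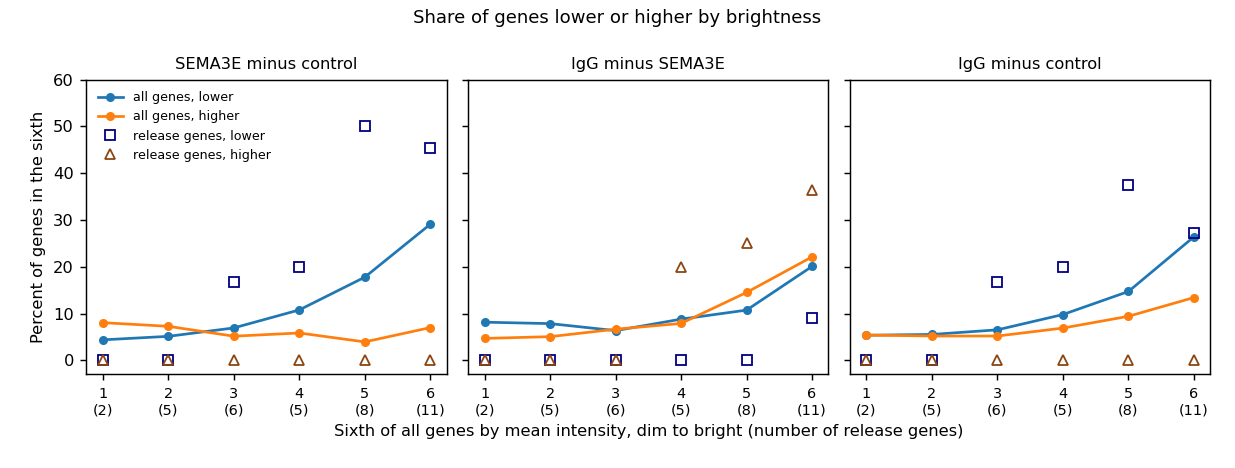
Percent of genes lower or higher in each of 6 classes of mean intensity, dim to bright, for the 3 comparisons; lines are all genes at or above the floor, and open symbols are the release genes, whose number in each class stands in parentheses. The line of lower genes in SEMA3E minus control climbs from 4.38% to 29.1%, and the squares of the 2 brightest classes stand above it with 8 and 11 genes.

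Other genes of the release pathway, not among the 37, are given beside them without a test of the difference. They were listed from general knowledge, with earlier results of these data known. Of 137 such genes, 131 were measured and 111 lay at or above the floor. In SEMA3E minus control 21 were lower (18.9% against 12.3% of all genes) and none was higher (against 6.21%). In IgG minus SEMA3E 5 were lower (4.50% against 10.3%) and 13 higher (11.7% against 10.2%), and in IgG minus control 16 were lower (14.4% against 11.4%) and 2 higher (1.80% against 7.59%). Medians were 0 in each comparison.

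Of the endocytosis genes, 8 of 22 were lower with SEMA3E (36.4%, against 12.3% of all genes and 29.1% of the brightest class of all genes). Ap2s1, the small subunit of the AP-2 clathrin adaptor, read 1063 units in control medium and 985 on both other arrays (-0.11), and Ap2b1, a large subunit, read 8588, 8165 and 8588 (-0.073). Dnm2, the dynamin found in all tissues, differed from control by -0.059 with SEMA3E and by 0 with the IgG. Among the 37 genes, Snap91 of this group was lower as well, while Dnm1 and Amph were identical.

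Napa, the adaptor alpha-SNAP that works with Nsf, stood furthest from control of all these genes: 3471 units in control medium and 3016 on both other arrays, a log2 difference of -0.20. Besides it only Stx7, an endosomal syntaxin, was lower with SEMA3E among 24 SNAREs and partners (-0.0091), where the 2 genes are 8.33% against 12.3% of all genes, and Vamp8 was lower with the IgG than with SEMA3E (-0.076). Of 18 further vesicle membrane genes 3 were lower with SEMA3E (16.7% against 12.3%). Those of the proton pump that powers vesicle filling gave Atp6ap1 at -0.094 and Atp6v0d1 at -0.088 for SEMA3E minus control and Atp6v1e1 at -0.066 for IgG minus SEMA3E, while Atp6v0a1, Atp6v1a, Atp6v1b2, Atp6v1g2 and Atp6v1h were identical on all arrays. The 9 genes of the Rab3 and Rab27 list were identical throughout, and of 15 priming and active zone genes Ppfibp1 (-0.026) and Mycbp2 (-0.0082) were lower with SEMA3E and at control with the IgG.

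Dense core granules, which carry the peptides, held 3 lower genes of 13 with SEMA3E (23.1% against 12.3% of all genes). Of these, Scg5 and Scg3 were in the brightest class, where 29.1% of all genes were lower. In IgG minus control 1 gene was lower (7.69% against 11.4%) and 2 were higher (15.4% against 7.59%). Scg5, the chaperone 7B2 of a prohormone convertase, read 9144 units in control medium, 8799 with SEMA3E and 8552 with the IgG, which was lowest. Vgf, a granin family precursor, was lower with SEMA3E (-0.016) and at control with the IgG. Scg3, a granin that sorts cargo, differed from control by -0.012 with SEMA3E and by 0.015 with the IgG. Of the other transmitter transporters, Slc18b1, a vesicular polyamine transporter, differed from control by -0.085 with SEMA3E, and Slc17a9, the vesicular nucleotide transporter, was identical.

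Markers of sensory neurons were also lower with SEMA3E where they differed. Of 21 listed, 20 were measured, all at or above the floor. In SEMA3E minus control 10 were lower (50.0% against 12.3% of all genes) and 0 higher. Most of the 20 lay in the brightest class, where 29.1% of all genes were lower. IgG minus SEMA3E gave 2 lower and 5 higher of 20, where 10.3% of all genes were lower and 10.2% higher. IgG minus control gave 8 lower and 1 higher of 20, where 11.4% of all genes were lower and 7.59% higher. The summed intensity of these markers was 445323 in control medium, 439691 with SEMA3E and 437803 with the IgG. That of the release genes was 162111, 159895 and 160761. Both sums were lower with SEMA3E than in control medium, and with the IgG the marker sum was lower still while the release gene sum was between the others. A sum is weighted to its brightest genes. Stmn2 read 55876 units with SEMA3E and 53164 with the IgG, and Elavl4 1939 and 1926, while 5 markers were higher with the IgG. The mean log2 difference of IgG minus SEMA3E was positive in both sets, 0.0067 for the markers and 0.0074 for the release genes. What part the neurons' share of the culture had in the release gene values was not tested. Furthest below control with SEMA3E on the log2 scale were Tubb3, the neuronal beta tubulin (-0.16), Avil, an actin binding protein of sensory neurons (-0.073), and Nefl, the light neurofilament (-0.065). Uchl1, Prph, Isl1, Pou4f1, Scn10a, Tac1, Trpv1 and P2rx3 were identical on all arrays. Fewer neurons and less of these RNAs in each neuron cannot be told apart in RNA from a whole culture.

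Markers of other cells at or above the floor gave no single direction. In SEMA3E minus control, satellite glia had 2 lower and 1 higher of 8 genes at or above the floor, Schwann cells 2 and 0 of 8, macrophages 1 and 2 of 7, fibroblasts 2 and 1 of 8, endothelium 1 and 0 of 5, and muscle and mural cells 0 and 1 of 5, beside 12.3% lower and 6.21% higher among all genes. From control to SEMA3E to IgG the summed intensity was 13117, 13357 and 12955 for satellite glia, 143845, 142449 and 141412 for Schwann cells, 4286, 4543 and 4457 for macrophages and 17539.9, 18058 and 18182 for fibroblasts. It was 369, 361 and 361 for endothelium and 12827, 13652 and 13644 for muscle and mural cells. The log2 difference of SEMA3E minus control was -0.31 for Pmp2, a lipid binding protein of myelin, -0.26 for Atp1b2 and -0.24 for Kcnj10, the potassium channel of satellite glia. It was 0.25 for Mgp of the fibroblast list, 0.23 for Tagln, an actin binding protein of smooth muscle, 0.19 for Lyz2, the lysozyme of macrophages, and 0.13 for Fabp7 of satellite glia. Of 12 macrophage markers 7 lay at or above the floor, and Ptprc, Csf1r, Mrc1, C1qb and C1qc lay below it. Tek of the endothelial list lay below it, and the brightest of that list, Cdh5, read 89.2 units. Of 7 markers of central glia and interneurons, not of this tissue, Gad1, Gad2, Aqp4 and Mog lay below the floor. Gfap (67.4 units), Olig2 (68.0) and Slc6a5 (47.2) lay above it, and none of the 7 differed between arrays. A value a little above the floor therefore does not show that a cell type was present. What part these cells had in the release gene values was not tested.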

How the data were processed

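Expression was measured on 3 Affymetrix arrays, 1 for each medium. RNA was extracted with TRIzol and a column kit and labelled with the GeneChip WT Pico kit, per the labels' protocols. The authors deposited intensities on a linear scale; the submitters' processing notes name Affymetrix Expression Console. How probes were summarised and normalized, with which version and build, is not given in the sources used here. Array medians were 44.5, 45.0 and 44.5 units, values ran from 6.12 to 496402, and precision is limited by having 3 arrays.

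Of 65956 probe sets, the platform annotation names 30604 with 1 symbol, 2146 with several and 33206 with none; 827 symbols were updated by gene number from RefSeq. The brightest single-symbol probe set was kept for each gene. Differences are of log2(intensity + 1). Values count as identical when equal as written, and as lower or higher otherwise; a second rule asks for at least 1.1-fold. The 99th percentile floor, an olfactory receptor floor, no floor, other probe set rules, an offset of 16, median centring, loess (span 0.3) and quantile normalization were alternatives. The counting was tested on control array values with known shifts put in, and loess on removing a known tilt put in. For quantile normalization the check covered only the medians, which the method itself brings together. Median centring was not tested in this way. Members whose values differ are given with all 3 values. From the other lists, examples were taken among the 3 genes furthest from 0 in each direction, with their log2 differences or values, and some genes identical on all arrays are named beside them. The members and lists were chosen with earlier results of these data known. Protein sequences were not used here. Python 3.11.15 with numpy 2.4.6, pandas 2.3.3, statsmodels 0.14.6 and matplotlib 3.10.9 was used.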

Additional observations from a re-analysis of the deposited data

How the results depend on the processing

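Some alternatives could not move the counts of lower and higher release genes. Each gene has 1 single-symbol probe set, so a mean over probe sets gives the same value. The shared Vamp1 probe set is dimmer and was never taken. All 37 genes pass the floor, so having no floor changes nothing, and an offset cannot change which value is lower. Over all 37 genes, where a rescaling gives identical genes a sign, loess and quantile normalization moved the counts further, as given with each comparison. Counts of release genes, taken among those that differ as deposited, were within 1.5 times of those as deposited in the alternatives run, except as follows. After loess and after quantile normalization 1 of the 11 release genes that differ in SEMA3E minus control was higher, Syt4 at 0.0010 and Snap25 at 0.011. In IgG minus SEMA3E, quantile normalization put 3 genes lower in place of 1, with Syt4 at -0.034 and Syt5 at -0.0020. Differences moved by over 1.5 times without turning were, in SEMA3E minus control, those after loess of Syt1 (-0.017), Syt5 (-0.0044), Snap25 (-0.012) and Sv2c (-0.036), after quantile normalization of Syt4 (-0.0090), Syt5 (-0.015) and Sv2c (-0.037) and after centring of Syt4 (-0.012). In IgG minus SEMA3E they were Syt4 after loess (0.011) and Slc17a6 after quantile normalization (-0.096), and in IgG minus control Snap25 (-0.018), Snap91 (-0.025) and Slc17a6 (-0.021) after loess and Nsf after quantile normalization (-0.014). The median of the 37 genes, 0 as deposited, became 0.0062 after centring in both comparisons with control. After loess it was 0.00045 in SEMA3E minus control, 0.00057 in IgG minus SEMA3E and 0.0018 in IgG minus control, and after quantile normalization -0.0050, -0.0025 and -0.0069. The median of all genes was moved by less than 0.1 in each. Sv2b was the only release gene at least 1.1-fold lower than control under every scaling and offset run. At a floor of 65.8 units 36 of 37 genes remained, without Sv2a. No paired analysis was possible because each medium has 1 array. The arrays give no spread between cultures, so no difference here has a measured error.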
